A study of Mus musculus with 16 samples.

Results

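The comparison described here is MRL against BL6 in unoperated rotator cuff muscle, which is the difference between the strains before any injury. Its members are the 8 samples whose labels give an unoperated control, 4 of strain C57BL/6J (BL6) and 4 of strain MRL/MpJ (MRL), out of 16 samples in the series. The other 8 samples are the same strains after a tenectomy, the removal of the tendon, together with denervation of the muscle, and they enter only as a second look at the strain difference. Messenger RNA was measured by RNA sequencing of whole muscle. The sample labels name the supraspinatus and the series' design text names the infraspinatus, both muscles of the rotator cuff. No allele, transgene or agent is given for any group, and ages are not given in the labels. The labels do not say whether the samples of a group came from separate animals, so p-values measure the spread between these samples, which may be technical.

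BL6 is the strain from which the mouse reference genome was made. MRL is an inbred strain that was bred for large body size and is known for closing ear holes and healing some other wounds with little scar. Inbred strains differ at many sites in the genome, so expression in a resting muscle can differ in genes of metabolism, immunity or fibre structure without any injury. In whole muscle, fewer cells of a type and less RNA per cell cannot be told apart.

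Library totals ranged from 33679319 to 43552964 counts in BL6 and from 30309957 to 39694956 in MRL, and values are given as CPM, counts scaled to a library of 1000000. Means of CPM are given ± SD (n = 4) and log2 fold changes ± SE. At this depth 3 counts in a library were 0.0718 to 0.0968 CPM, and such floors cover counting error only. Skeletal muscle fibre markers summed to 196420 to 258478 CPM in BL6 and to 182777 to 199388 CPM in MRL, so markers of the labelled tissue were abundant in all 8 samples. All 4 Y-linked genes on the list were measured in all 8 samples. Uty was called higher in MRL (20.9 ± 2.02 against 41.7 ± 5.09 CPM, SD, n = 4 each), while Ddx3y, Kdm5d and Eif2s3y were not called. The first principal component of the 8 libraries carried 67.4% of the variance and separated the strains. On the second, with 16.02%, MRL replicate 1 lay at 33.7 and MRL replicates 2 to 4 between -17.4 and -13.1. That library also had the highest level of the 8 for all 17 macrophage markers tested, whose sum was 474 CPM there, 105 to 130 CPM in the other MRL libraries and 52.4 to 180 CPM in BL6. Results that rest on it are given with and without it.

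Of 11709 genes tested, 1216 (10.4%) differed between the strains, called by the quasi-likelihood test of edgeR where the adjusted p was under 0.05. Of these, 588 were higher in MRL (5.02%) and 628 were lower (5.36%). The median size of a called difference was 0.80 on the log2 scale, and 467 calls reached a log2 fold change of at least 1, with 253 higher and 214 lower. In 1173 of the calls every sample of one strain lay above every sample of the other, a state that held for 2937 of all genes tested (25.1%). Genes whose reads may be shared with another gene were set apart: ribosomal protein genes, globins, pseudogenes, predicted or clone-named genes, and genes that share at least 20% of their 50-base stretches with another gene. Outside these there were 998 calls among 10703 genes (9.32%), 459 higher and 539 lower, of which 309 reached a log2 fold change of at least 1. Among the 1006 genes set apart there were 218 calls (21.7%), 129 higher and 89 lower.

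The number of calls and their split depended on the fit. Fitted to the 8 unoperated samples alone, the test called 2438 genes, of which 1204 were among the 1216. Without MRL replicate 1 the 16-sample fit called 905 genes, including 872 of the 1216, and 1 call changed sign (Cd72). Calls outside the set-apart genes fell to 639 without BL6 replicate 3, to 650 without BL6 replicate 4 and to 661 without MRL replicate 4. Scaling by total counts alone moved the median log2 fold change of all genes from 0.01 to 0.15 and changed the split to 742 higher and 313 lower, so that 70.3% of calls were higher in MRL in place of 48.4%.

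Genes were named from the calls outside the set-apart ones, with at least 5 CPM on average over the 8 samples. A further condition was that the strains did not overlap, so this is no result for these genes. Large rises in MRL are reported for 11 of them: Hal, Opn1mw, Pyroxd2, Nr4a3, Lrrc3b, Rbp7, Mss51, Abhd1, Gadl1, Mettl21e and Kbtbd12. Hal (chr10:93488768-93519304), which encodes histidine ammonia-lyase, the first enzyme of histidine breakdown, measured 0.0300, 0.0957, 0.0793 and 0.0541 CPM in the 4 BL6 samples and 26.0, 19.7, 19.9 and 24.03 CPM in the 4 MRL samples. The BL6 values were near the floor of 3 counts, and every MRL sample lay far above them. Its mean was 346-fold higher in MRL (log2 fold change 8.31 ± 0.33 SE, edgeR adjusted p = 4.05e-11). Opn1mw (chrX:74127464-74150760), the medium-wave cone opsin, measured 0.841, 0.718, 0.317 and 0.271 CPM in BL6 and 18.9, 16, 14.7 and 15.1 CPM in MRL, with a log2 fold change of 4.91 ± 0.32 (edgeR adjusted p = 1.93e-08). The strains did not overlap in either gene, as the choice of genes required.

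Mss51 (chr14:20482867-20496901), a muscle gene whose product is linked to mitochondrial metabolism, measured 56.2, 79.8, 62.2 and 49.8 CPM in BL6 and 505, 564, 477 and 347 CPM in MRL. This was 7.63-fold higher in MRL, with a log2 fold change of 2.93 ± 0.55 (edgeR adjusted p = 0.00214). Gadl1, a decarboxylase of the beta-alanine pathway, averaged 2.64 ± 0.476 CPM in BL6 against 16.03 ± 2.71 CPM in MRL. Rbp7, a retinol-binding protein of endothelium and fat, averaged 3.26 ± 0.486 against 28.6 ± 3.25 CPM. Mettl21e, a muscle methyltransferase, averaged 7.43 ± 1.59 against 45.0 ± 6.42 CPM, and Kbtbd12, a kelch-repeat protein, averaged 39.2 ± 5.94 against 226 ± 33.9 CPM. The remaining rises were Pyroxd2 (0.660 against 9.48 CPM), Lrrc3b (2.89 against 29.6 CPM) and Abhd1 (1.52 against 11.1 CPM).

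Nr4a3 (chr4:48045153-48086447), an orphan nuclear receptor and immediate early gene, showed the widest spread of these rises. It measured 7.69, 3.18, 2.54 and 3.82 CPM in BL6 and 39.0, 32.0, 39.7 and 121 CPM in MRL. MRL replicate 4 stood above the other MRL samples, and all 4 lay above BL6, with a log2 fold change of 3.76 ± 0.74 (edgeR adjusted p = 0.00310). Nr4a3 was not called in operated muscle, where its log2 fold change was 0.75. The other 10 rises were called there as well, in the same direction.

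**Figure D1:**
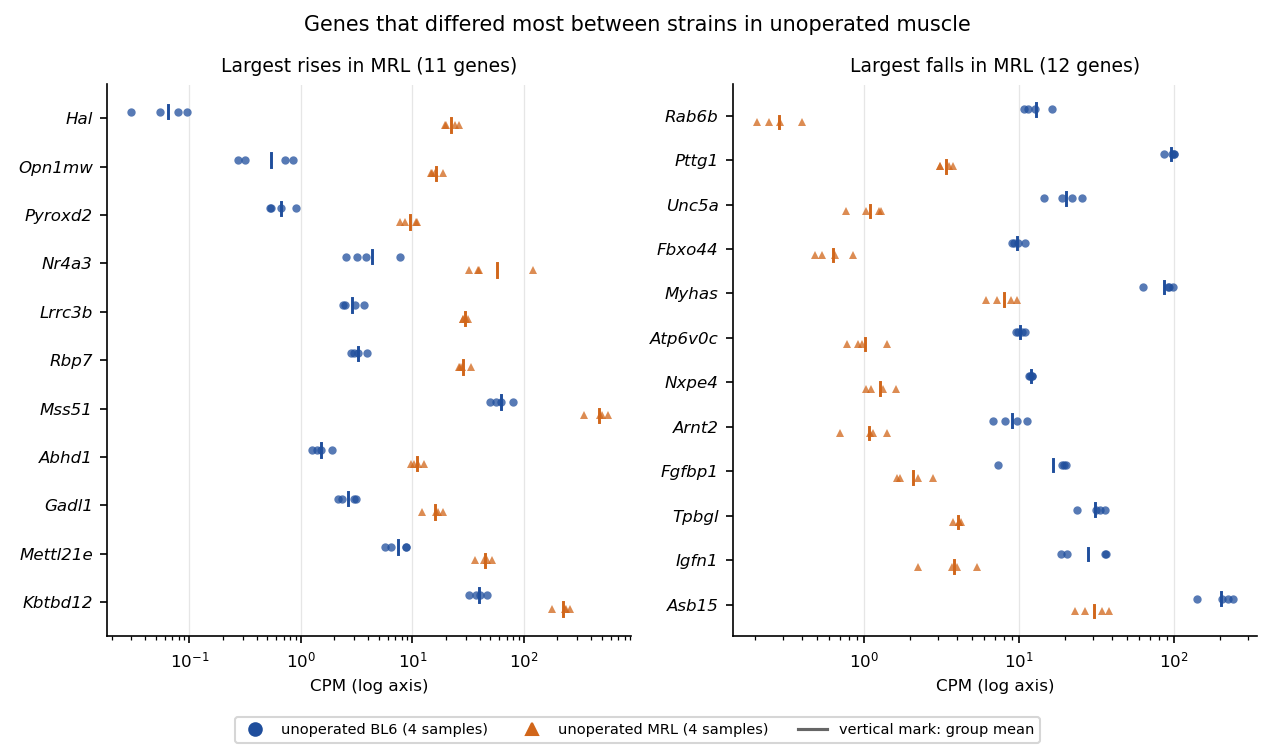
CPM on a log axis of 11 genes with large rises (left) and the 12 with the largest falls (right) in unoperated muscle. Circles are the 4 BL6 samples, triangles the 4 MRL samples and vertical marks the group means. No gene has overlapping strains, which was a condition of their choice, and Hal and Rab6b lie farthest apart in their panels.

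By the same conditions, the 12 largest falls in MRL were in Rab6b, Pttg1, Unc5a, Fbxo44, Myhas, Atp6v0c, Nxpe4, Arnt2, Fgfbp1, Tpbgl, Igfn1 and Asb15. Rab6b (chr9:103111787-103185276), a small GTPase of Golgi transport, measured 11.5, 10.8, 16.3 and 12.8 CPM in BL6 and 0.397, 0.204, 0.290 and 0.244 CPM in MRL. It was 45.2-fold lower in MRL, with a log2 fold change of -5.50 ± 0.38 (edgeR adjusted p = 3.86e-08). Pttg1 (chr11:43420250-43426251) encodes securin, which inhibits the separation of sister chromatids before anaphase. Pttg1 measured 86.0, 100.2, 96.9 and 100.2 CPM in BL6 and 3.79, 3.55, 3.10 and 3.09 CPM in MRL. All samples of a strain lay close together, and the log2 fold change was -4.82 ± 0.26 (edgeR adjusted p = 2.36e-09).

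Falls also included genes of muscle structure and signalling. Asb15 (chr6:24528144-24573164), a muscle SOCS-box protein, measured 142, 205, 223 and 241 CPM in BL6 and 23.2, 34.7, 38.1 and 26.7 CPM in MRL, with a log2 fold change of -2.73 ± 0.28. Igfn1, an immunoglobulin and fibronectin domain protein of the Z-disc, averaged 27.9 ± 9.82 against 3.84 ± 1.30 CPM. Unc5a, a netrin receptor, averaged 20.3 ± 4.79 against 1.09 ± 0.240 CPM. Arnt2, a partner of bHLH-PAS transcription factors, averaged 9.0 ± 1.94 against 1.09 ± 0.290 CPM. Fgfbp1, a carrier of fibroblast growth factors, measured 7.30, 20.1, 18.9 and 19.7 CPM in BL6 and 1.65, 2.79, 2.23 and 1.71 CPM in MRL. BL6 replicate 1 was low within its strain and still above every MRL sample.

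Fbxo44, an F-box protein, averaged 9.78 ± 0.822 against 0.632 ± 0.165 CPM, Nxpe4 averaged 12 ± 0.283 against 1.27 ± 0.258 CPM, and Tpbgl averaged 31.1 ± 5.21 against 4.06 ± 0.213 CPM. Myhas (chr11:67211256-67237573) is an antisense RNA within the cluster of fast myosin heavy chain genes. It averaged 86.8 ± 16.3 against 8.02 ± 1.60 CPM. The use of strand in the counting is not given in the sources used here, so its reads cannot be told apart from those of genes it overlaps. Atp6v0c, the proton-channel subunit of the vacuolar ATPase, averaged 10.2 ± 0.620 against 1.02 ± 0.275 CPM. Its copy Atp6v0c-ps2 was called in the opposite direction, so its count is uncertain. Of the 12 falls, 11 were called in operated muscle in the same direction, and Igfn1 was not (log2 fold change -1.25).

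All 23 genes stayed past the threshold in each of the alternative fits that gave a value for them, and their highest adjusted p in the 16-sample fit of edgeR was 0.00600. In the authors' deposited table all 23 were also past the same threshold, in the same direction. That table comes from the same samples, so it is not independent evidence.

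The listed interferon-response genes were lower in MRL where edgeR called them. Related genes outside the list were called in both directions, such as Ifi202b (9.43) and Ifit3b (0.81) higher, and Gbp5 (-1.52) and Irgm2 (-0.96) lower. Of 28 listed and tested, 8 were called lower and none higher, against 5.36% called lower over all genes. The median log2 fold change of the 28 was -0.50 against 0.01 over all genes. Rsad2 (viperin, an antiviral enzyme) measured 6.25, 5.36, 6.95 and 5.20 CPM in BL6 and 1.99, 1.38, 1.26 and 0.650 CPM in MRL, a log2 fold change of -2.17 ± 0.40 (edgeR adjusted p = 0.00189). Gbp7, a guanylate-binding protein, measured 16.5, 12.5, 14.4 and 17.3 CPM in BL6 and 6.36, 6.52, 5.90 and 4.98 CPM in MRL. Ifi35 averaged 18.1 ± 3.96 against 7.96 ± 1.68 CPM, with a log2 fold change of -1.18 ± 0.17. In these 3 genes the strains did not overlap, and the call held in every alternative fit.

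The other called members were Ifit3, Usp18, Ifih1, Gbp2 and Irgm1. Usp18, which trims ISG15 from proteins, had a log2 fold change of -1.01 and lost its call in 6 of 16 alternative fits. Ifih1, the RNA sensor MDA5, had -0.94 and lost it in 3 of 17. Gbp2 had -0.81 and lost it under scaling by total counts. Irgm1, an immunity-related GTPase, averaged 20.8 ± 0.213 against 17.5 ± 0.456 CPM, a log2 fold change of -0.26, and lost its call in 10 of 17. Ifit3, an antiviral RNA-binding protein, had -1.53, but its partner Ifit3b, which shares sequence with it, rose by 0.81, and the sum of both was 5.80 CPM in BL6 and 6.19 CPM in MRL with overlapping samples.

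The count of interferon-response genes called lower was 9 without MRL replicate 1, 4 under scaling by total counts, and 16 among the unoperated samples alone without MRL replicate 1. Over all genes the share called lower in these fits was 4.24%, 2.67% and 10.4%. The summed level of the 28 genes was 250.5 to 299.1 CPM in BL6, 257.6 CPM in MRL replicate 1 and 182.8 to 200.2 CPM in MRL replicates 2 to 4. Macrophage markers were highest in that same replicate, and their part in the interferon genes' levels was not tested. In operated muscle 6 of the 28 were called lower and 2 higher.

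Of 20 genes of class I antigen presentation, 3 were called lower in MRL and 1 higher, against 5.36% and 5.02% over all genes. Their median log2 fold change was -0.09 and became 0.04 under scaling by total counts. H2-D1, a classical class I heavy chain, measured 82.8, 82.0, 77.8 and 72.1 CPM in BL6 and 54.4, 40.5, 35.7 and 44.1 CPM in MRL. Its log2 fold change was -0.85 ± 0.20 (edgeR adjusted p = 0.0104), and it lost its call under scaling by total counts. H2-Q7, a non-classical class I chain, averaged 2.60 ± 1.19 against 0.227 ± 0.0836 CPM. H2-Q6 averaged 4.84 ± 1.91 against 2.14 ± 0.255 CPM and lost its call in 7 of 16 alternative fits. H2-Q6 and H2-Q7 share stretches of sequence with other class I genes, so their counts are uncertain. H2-T24 had a log2 fold change of 0.94 and lost its call in 8 of 17. Of the 7 listed class II genes that were tested none was called by edgeR or DESeq2. An unadjusted edgeR p under 0.05 held for 1 of the 7, against 2848 of all 11709 genes. H2-Ea-ps, the class II E-alpha locus that is annotated as a polymorphic pseudogene, is outside the list and was looked at after its values were seen. It had no count in any BL6 sample and measured 4.62, 2.56, 4.87 and 5.01 CPM in MRL, at least 213-fold higher against a floor of 3 counts over the group (edgeR adjusted p = 6.63e-07).

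Of 16 complement genes 2 were called higher, against 5.02% over all genes. Cd59a, which blocks the membrane attack complex, averaged 19.1 ± 1.74 against 30.6 ± 1.91 CPM, a log2 fold change of 0.68 ± 0.12. C1rb, a protease gene that shares sequence with C1ra, measured at most 0.0601 CPM in BL6, and 15.6, 1.20, 1.32 and 1.79 CPM in MRL replicates 1 to 4. Without MRL replicate 1 its log2 fold change went from 7.34 to 5.55 and it was still called. C1ra was not called, and the sum of both genes was 7.26 CPM in BL6 and 12.2 CPM in MRL with overlapping samples.

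Genes of the neuromuscular junction and of the response to denervation were lower in MRL where edgeR called them. Of 17 tested, 4 were called lower and none higher, against 5.36% and 5.02% over all genes, while the median of the list was -0.00, and 0.11 under scaling by total counts. These were 3 subunits of the muscle acetylcholine receptor, Chrna1, Chrnd and Chrne, and Gadd45a, a stress-induced gene that rises in denervated muscle. Chrnd, the delta subunit, measured 8.02, 9.55, 6.53 and 9.12 CPM in BL6 and 3.82, 4.47, 4.84 and 4.79 CPM in MRL, a log2 fold change of -0.89 ± 0.18 (edgeR adjusted p = 0.00393). Chrna1, the alpha subunit, measured 23.2, 23.2, 16.5 and 23.3 CPM in BL6 and 13.1, 14.6, 13.9 and 13.7 CPM in MRL, with -0.64 ± 0.14. Every BL6 sample lay above every MRL sample in both subunits.

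Chrne, the epsilon subunit of the adult receptor, averaged 40.5 ± 6.68 against 23.9 ± 2.18 CPM, with -0.76 ± 0.22, and lost its call in 6 of 17 alternative fits, one of them without MRL replicate 1. Gadd45a averaged 18.9 ± 3.76 against 9.87 ± 0.737 CPM, with -0.94 ± 0.22. Across the alternatives 3 to 5 members were called lower, and 1 was called higher with DESeq2 and without BL6 replicate 1. In operated muscle Chrna1 kept its call (-0.54), and the log2 fold changes of Chrnd, Chrne and Gadd45a there were -0.28, -0.64 and -0.60, not past the threshold.

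**Figure D2:**
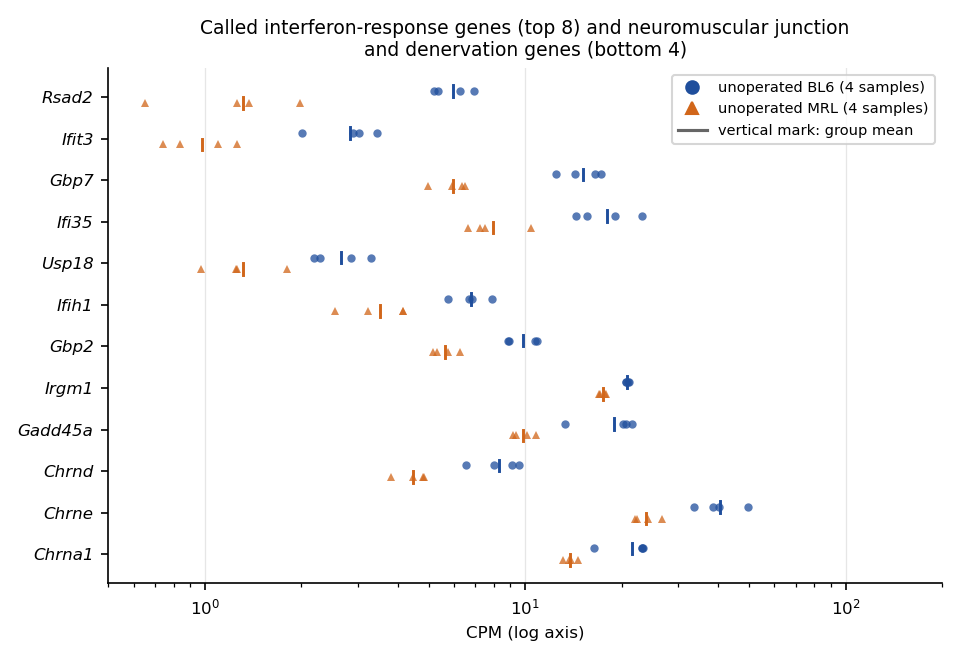
CPM on a log axis of the 8 interferon-response genes and the 4 neuromuscular junction and denervation genes called in unoperated muscle. Circles are the 4 BL6 samples, triangles the 4 MRL samples and vertical marks the group means. In all 12 genes the BL6 samples lie above the MRL samples, and the gap is widest for Rsad2.

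Of 17 markers of skeletal muscle fibres only Myl1 was called, against 10.4% over all genes. Myl1, the essential light chain of fast myosin, averaged 4682 ± 540.0 against 2641 ± 189.8 CPM, a log2 fold change of -0.83 ± 0.16 (edgeR adjusted p = 0.00307). Its copy Mylf-ps rose from 14.7 to 43.6 CPM on average, far less than the fall in Myl1. Of 12 slow-fibre genes only Casq2, the calsequestrin of slow and cardiac muscle, was called. It measured 23.5, 16.1, 19.9 and 19.3 CPM in BL6 and 9.29, 10.4, 10.4 and 9.78 CPM in MRL, with -0.98 ± 0.16. Of 16 genes of muscle atrophy, 2 were called lower, against 5.36% over all genes. Fbxo21, an F-box protein, had a log2 fold change of -0.78, and Igf1r, the receptor of insulin-like growth factor 1, had -0.47. Both lost the call under scaling by total counts.

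Calls among genes of energy metabolism varied between lists, against 10.4% called over all genes. Neither edgeR nor DESeq2 called any of 33 nuclear genes of the respiratory chain or of 26 genes of fatty acid uptake and oxidation. An unadjusted edgeR p under 0.05 held for 1 and 6 of them, against 2848 of all 11709 genes. Of 24 genes of glycolysis and glycogen, 2 were called higher and 1 lower, and their median was -0.07, or 0.07 under scaling by total counts. Ugp2, which makes the UDP-glucose used for glycogen, measured 839, 765, 701 and 747 CPM in BL6 and 1151, 1413, 1212 and 1497 CPM in MRL, a log2 fold change of 0.79 ± 0.17 (edgeR adjusted p = 0.00685). Hk2, the hexokinase of muscle, had 0.84 ± 0.26 and lost its call in 10 of 17 alternative fits. Eno1, an enolase that shares sequence with other genes, averaged 22.7 ± 1.25 against 12.8 ± 1.72 CPM.

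All 7 mitochondrially encoded genes tested had a negative log2 fold change, with a median of -0.38, or -0.24 under scaling by total counts. In all 7 every MRL sample lay below every BL6 sample. Over all genes tested the strains were apart in 25.1%, counting both directions. Of the 7 genes, 2 are set-apart genes. The sum of the 7 was 133521 to 145807 CPM in BL6 and 100815 to 114871 CPM in MRL. Only mt-Nd6 was called by edgeR (-1.32). It lost its call in 6 of 17 alternative fits, among them the fit without BL6 replicate 1. In that replicate it measured 76.5 CPM, against 23.2 to 31.1 CPM in the other BL6 samples. Of 18 genes of amino acid breakdown, Hal was called higher and 2 genes lower, against 5.02% and 5.36% over all genes. Aldh4a1, an enzyme of proline breakdown, measured 80.8, 114, 122 and 122 CPM in BL6 and 37.7, 42.5, 39.8 and 40.4 CPM in MRL, with -1.45 ± 0.16, and it shares sequence with another gene. Mccc1, a subunit of the leucine-pathway carboxylase, averaged 65.7 ± 10.8 against 39.3 ± 2.45 CPM. Car3, a carbonic anhydrase of muscle and fat, was the 1 adipocyte marker called of 13. It measured 44.5, 84.2, 153 and 82.7 CPM in BL6 and 302, 484, 525 and 454 CPM in MRL, a log2 fold change of 2.28 ± 0.58, and lost its call without BL6 replicate 1, 2 or 4.

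Of 29 genes of glutathione and antioxidant defence, 3 were called higher and 1 lower, against 5.02% and 5.36% over all genes. Their median log2 fold change was 0.22. Gsr, glutathione reductase, measured 22.9, 26.6, 22.1 and 22.8 CPM in BL6 and 32.1, 36.3, 32.7 and 36.1 CPM in MRL, a log2 fold change of 0.54 ± 0.10 (edgeR adjusted p = 0.00234). Txnrd1, thioredoxin reductase, had 0.60, Mt1, a metallothionein, had 0.92 and Cat, catalase, had -0.46. These 3 lost their call in 8, 6 and 8 of 17 alternative fits. Of 18 clock genes, Nr1d1, the repressor REV-ERB alpha, was called lower (193 ± 39.3 against 84.7 ± 23.99 CPM, -1.19 ± 0.31), and lost its call in 4 of 17. The labels used here give no time of day of collection. Of 17 immediate early and heat shock genes, Nr4a3 was called higher, and Hspa8 and Hspb1, both with a copy that was called in the opposite direction, were called lower. Of 14 genes of the hypoxia pathway, Ddit4, an inhibitor of mTOR complex 1, was called higher (1.06 ± 0.28) and lost its call in 4 of 17.

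Of 31 ligands, receptors and inhibitors of Wnt and TGF-beta signalling, 2 were called higher and 3 lower. Over all genes 5.02% were called higher and 5.36% lower. Frzb, a secreted inhibitor that binds Wnt ligands, measured 4.99, 5.86, 5.44 and 6.44 CPM in BL6 and 20.7, 25.8, 21.3 and 28.1 CPM in MRL. It was 4.21-fold higher in MRL, with a log2 fold change of 2.07 ± 0.26 (edgeR adjusted p = 4.34e-05), and 2.10 in operated muscle. Fzd4, a Wnt and norrin receptor, measured 287, 315, 238 and 272 CPM in BL6 and 151, 145, 163 and 113 CPM in MRL, with -0.96 ± 0.13 (edgeR adjusted p = 1.08e-04). Wnt11, a Wnt ligand, had 0.64, Lrp5, a Wnt co-receptor, had -0.57 and Acvr2b, the receptor of myostatin and activin, had -0.76. These 3 lost their call in 5, 4 and 10 of 17 alternative fits.

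Markers of other cell types gave few calls by edgeR, where 10.4% of all genes tested were called. Of 17 macrophage markers only Aif1 was called. It measured 32.9 CPM in MRL replicate 1 and 0.409, 0.806 and 0.650 CPM in replicates 2 to 4, against 0.244 to 0.551 CPM in BL6. Without MRL replicate 1 its log2 fold change went from 4.45 to 0.64 and it was not called, and the median of the 17 markers went from 1.06 to 0.38. Only 2 of 14 lymphocyte markers were tested. Cd72 was called through MRL replicate 1 alone (35.7 CPM, against 0.135 to 0.230 CPM in replicates 2 to 4), and without that replicate its log2 fold change was -0.52. In all, 13 of the 32 lists had no gene called by edgeR, among them the markers of endothelium, mural cells, Schwann cells, tendon, fibro-adipogenic progenitors and satellite cells, the collagens, and the matrix proteins. These 13 lists held 186 tested genes, of which 29 had an unadjusted edgeR p under 0.05 and 5 were called by DESeq2. Over all 11709 genes, 2848 had an unadjusted edgeR p under 0.05 and DESeq2 called 1666. In 4 of the 7 tested satellite cell markers every MRL sample lay below every BL6 sample, and in 0 above. Over all genes tested the strains were apart in 25.1%, counting both directions. DESeq2 called 2 of the 7, against 1666 of 11709 genes. The sum of the 7 markers was 207 to 237 CPM in BL6 and 159 to 185 CPM in MRL.

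**Figure D3:**
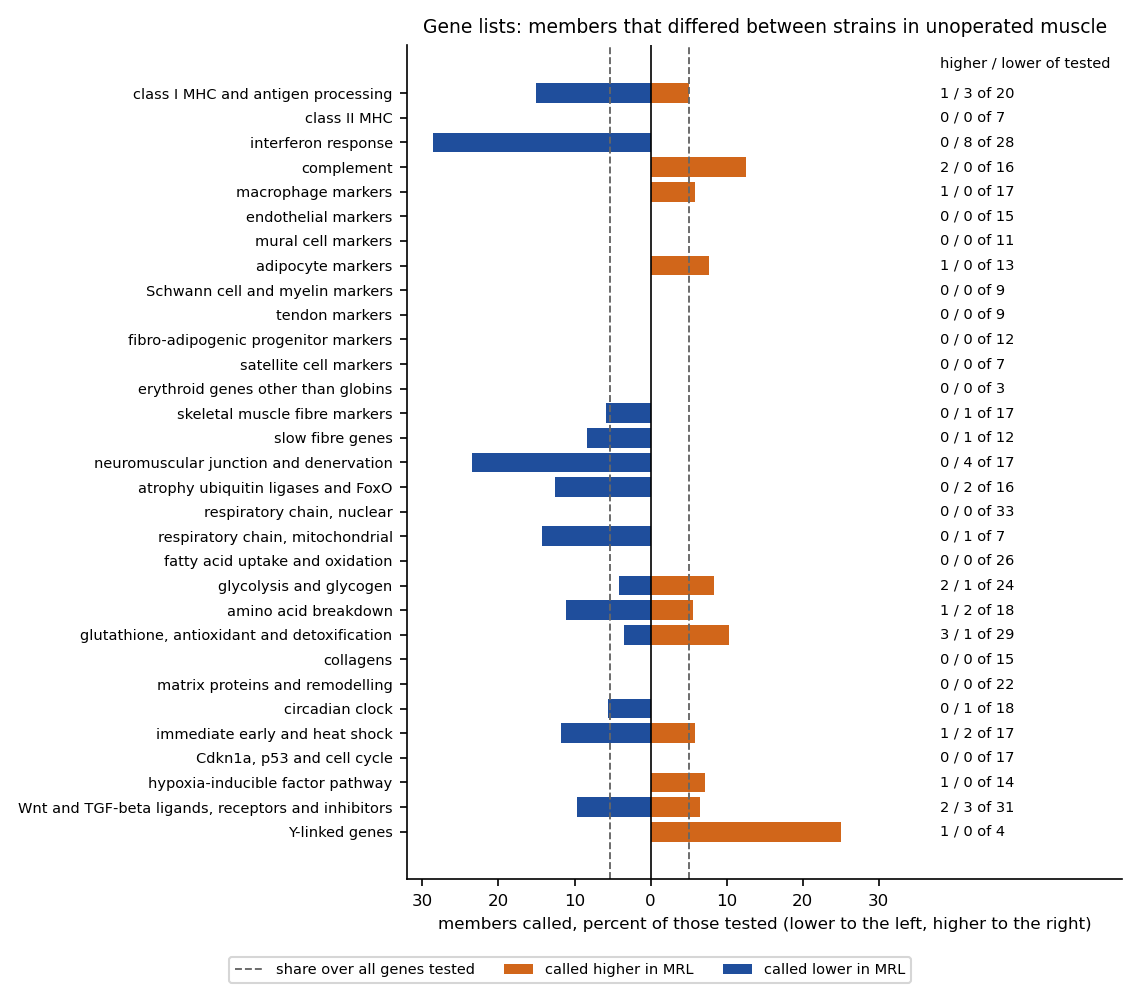
Share of tested members called in unoperated muscle for each gene list with at least 3 tested members, lower in MRL to the left and higher to the right. Dashed lines are the shares over all genes tested, 5.36% lower and 5.02% higher, and the figures at the right are counts. Interferon-response and neuromuscular junction genes have the longest bars to the left.

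The operated samples share no library with the unoperated ones, so the strain difference there is a second measurement, made under injury. Of 11709 genes 1507 (12.9%) were called there. Of the 1216 genes called in unoperated muscle, 1088 had the same sign in operated muscle and 606 were called in the same direction. The 606 are 49.8% of the unoperated calls and 40.2% of the operated ones. Of the 467 calls with a log2 fold change of at least 1, 321 were called again in the same direction, and of the 749 smaller ones 285 were. Outside the set-apart genes 445 of 998 were called again, and within them 161 of 218. Over the 1216 genes Pearson's r between the log2 fold changes in unoperated and operated muscle was 0.93 and Spearman's rho was 0.86, while r over all 11709 genes was 0.73. This is a description, since genes are not independent replicates.

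**Figure D4:**
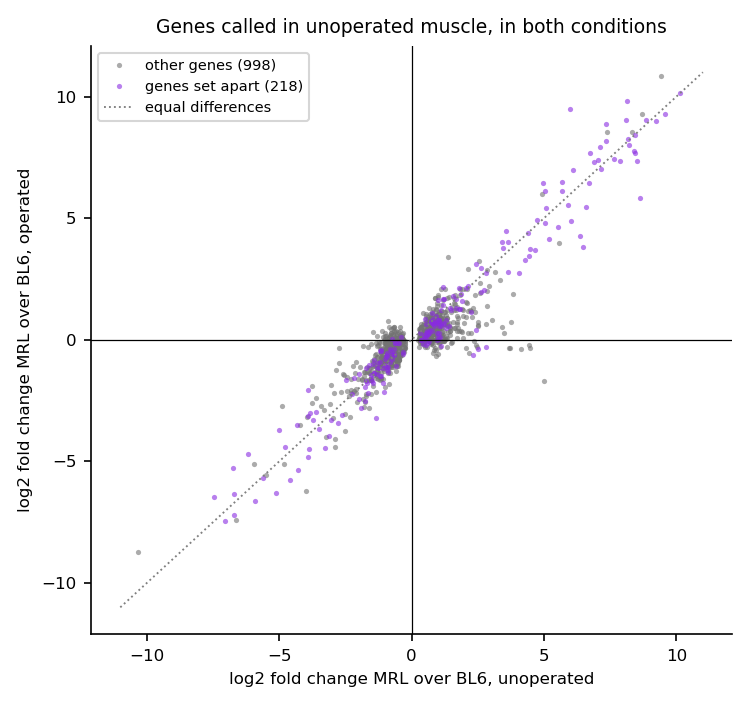
Log2 fold change of MRL over BL6 in operated muscle (vertical) against that in unoperated muscle (horizontal) for the 1216 genes called in unoperated muscle, with set-apart genes in a colour of their own. The dotted line marks equal differences. Most genes, 1088 of 1216, have the same sign in both conditions.

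Only 5 genes were called in opposite directions in the 2 conditions, Bche, Dad1, Kcnc4, Nup160 and Tmf1. Bche, butyrylcholinesterase, had -0.67 in unoperated and 0.52 in operated muscle, and Kcnc4, a voltage-gated potassium channel, had -0.65 and 0.53. A test of the difference itself, the interaction of strain and surgery, called 29 of all 11709 genes (0.248%), of which 18 were among the 1216. These 18 were Bche, Ccdc28b, Cd82, D630024D03Rik, Fzd4, Gamt, Hspa8, Kcnc4, Mvd, Nup160, Rpl34, Rpl35a, Rrm2b, Snx10, Tcea1, Tmem245, Tmf1 and Tppp. Fzd4 fell by 0.96 on the log2 scale in unoperated muscle and had 0.15 in operated muscle. Gamt, the second enzyme of creatine synthesis, had 1.38 and 0.33, Cd82, a tetraspanin of satellite cells, had 1.33 and -0.31, and Mvd, an enzyme of cholesterol synthesis, had 0.99 and -0.57. Snx10, a sorting nexin, had -1.85 and -0.24. The number depended on single libraries. Counted among the calls of each fit, it was 0 without BL6 replicate 2 or BL6 replicate 4, 1 without MRL replicate 4, 2 without BL6 replicate 1, BL6 replicate 3 or MRL replicate 2, and 3 without MRL replicate 1. DESeq2 gave 126 such genes among its own 1666 calls.

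The largest differences of all sat in the genes set apart. Of 40 calls with a log2 fold change beyond 6 in size, 34 were in this group, and of 111 beyond 3 there were 75. By kind, 138 of 548 predicted or clone-named genes were called (93 higher, 45 lower), 16 of 27 pseudogenes (14 higher, 2 lower), 20 of 70 ribosomal protein genes (9 higher, 11 lower), 43 of 357 genes with shared stretches (13 higher, 30 lower) and 1 of 4 globins (lower). With at least 5 CPM on average and no overlap between strains, the largest rises were in Gm10260, Gm13394, AK157302 and AC122453.1. The largest falls were in Hba-a2, Rpl26, Gm15510 and Rpl14. Gm10260, a copy of the ribosomal protein gene Rps18, measured 0, 0.120, 0.0529 and 0.135 CPM in BL6 and 58.2, 49.96, 43.1 and 50.5 CPM in MRL. Gm13394, a copy of Gapdh, averaged 1.46 ± 0.131 against 533 ± 41.5 CPM. Gapdh itself, the glycolytic enzyme, was not called (21.7 against 27.8 CPM), so the sum of both rose from 23.2 to 561 CPM. Gapdh is also among the genes set apart for shared stretches, so its count is uncertain. Gm15510 is annotated as antisense, with 11.7 ± 0.850 against 0.106 ± 0.0747 CPM.

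The 73 pairs of genes that share sequence were formed from that limit of 20%, and the gene with the larger share of its 50-base stretches in common is called the copy. That share ran from 20.2% to 100% with a median of 56.2%, so some pairs, such as Rnf7 and Emb (24.3%), are not copies of each other as whole genes. The copy was called in 45 (39 higher in MRL, 6 lower) and the parent gene in 29 (6 higher, 23 lower). In 22 pairs both were called in opposite directions, and in 20 of these the copy was higher and the parent lower in MRL. The sum of both genes overlapped between the strains in 8 of the 22, and its log2 ratio of MRL to BL6 ranged from -1.35 to 1.07 with a median of -0.41. Rpl26, a protein of the large ribosomal subunit, fell from 37.9 ± 5.31 to 0.284 ± 0.0537 CPM while Gm15772 went from 0.141 to 33.8 CPM, and their sum was 38.1 CPM in BL6 and 34.1 CPM in MRL. Rpl14 fell from 41.1 to 0.392 CPM, its copy Rpl14-ps1 rose from 12.6 to 52.3 CPM, and the sum was 53.7 and 52.7 CPM. Hspa8, a constitutive heat shock protein, fell from 178 to 18.4 CPM and its copy Gm15459 rose from 0.449 to 63.5 CPM, so that here the sum fell from 178 to 82.0 CPM.

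The sequences of 3 pairs show how few bases differ between the aligned parts of genes with opposite calls. The alpha globins are instead a called gene and an uncalled partner. Each line is a stretch of 120 bases of a GENCODE M21 transcript of GRCm38, 5′ to 3′, and capitals mark the positions at which the genes of a pair differ. Over their whole alignment Rpl26 and Gm15772 were identical at 99.5% of 432 bases, Atp6v0c and Atp6v0c-ps2 at 99.8% of 465 bases, and Hba-a2 and Hba-a1 at 99.8% of 538 bases. In the same order the transcripts are 657 and 438, 1183 and 465, and 554 and 699 bases long. Parts of them, most of all in Atp6v0c, lie outside the alignment.
Rpl26: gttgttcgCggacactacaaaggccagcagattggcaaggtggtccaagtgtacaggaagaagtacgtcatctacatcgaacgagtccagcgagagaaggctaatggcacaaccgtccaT
Gm15772: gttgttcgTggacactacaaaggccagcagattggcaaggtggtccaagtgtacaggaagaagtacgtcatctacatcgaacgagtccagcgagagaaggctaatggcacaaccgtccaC
Atp6v0c: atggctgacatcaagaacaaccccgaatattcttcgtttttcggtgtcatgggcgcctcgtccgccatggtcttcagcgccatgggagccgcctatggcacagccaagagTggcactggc
Atp6v0c-ps2: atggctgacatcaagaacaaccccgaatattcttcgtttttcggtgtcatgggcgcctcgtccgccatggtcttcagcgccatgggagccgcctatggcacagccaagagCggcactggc
Hba-a2: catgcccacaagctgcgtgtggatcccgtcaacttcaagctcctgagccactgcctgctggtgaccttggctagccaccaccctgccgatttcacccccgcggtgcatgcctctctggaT
Hba-a1: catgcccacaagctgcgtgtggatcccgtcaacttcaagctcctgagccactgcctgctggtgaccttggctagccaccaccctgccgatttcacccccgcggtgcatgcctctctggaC
For Atp6v0c and Atp6v0c-ps2, the parent fell from 10.2 to 1.02 CPM and the copy rose from 0.0588 to 4.30 CPM, and the sum fell from 10.3 to 5.32 CPM. Hba-a2 measured 47.5, 37.8, 166 and 52.4 CPM in BL6 and 0.611, 0.664, 0.194 and 0.217 CPM in MRL, with the third BL6 replicate high, while Hba-a1 was not called and the sum of both was 189 CPM in BL6 and 201 CPM in MRL. How the deposited counts assign a read that fits both genes of a pair is not given in the sources used here, and whether the calls in such pairs reflect that assignment was not tested.

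**Figure D5:**
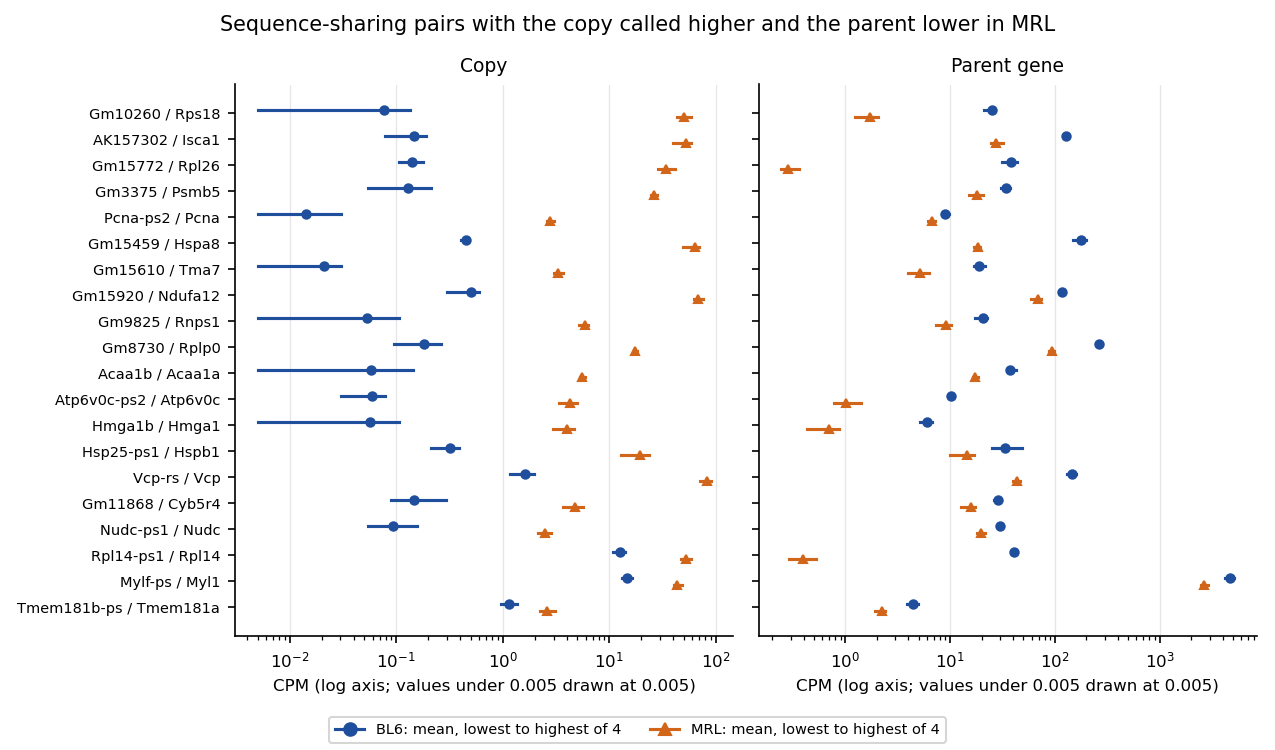
CPM on a log axis of the copy (left) and of its parent gene (right) for the 20 sequence-sharing pairs with the copy called higher and the parent lower in MRL. Symbols are means of 4 samples and lines run from the lowest to the highest sample, with circles for BL6 and triangles for MRL. Most copies lie below 1 CPM in BL6, and the parents fell by very different amounts, most in Rpl26 and Rpl14.

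Of the 22 opposite pairs, 10 have a partner that was not set apart, because it shares less of its own length: Isca1, Pcna, Tma7, Ndufa12, Rnps1, Acaa1a, Atp6v0c, Cyb5r4, Myl1 and Emb. Isca1, an iron-sulfur cluster assembly protein, fell from 127 to 27.5 CPM and its copy AK157302 rose from 0.147 to 52.0 CPM. These 10 genes count among the 998. The sum with the copy overlapped between the strains for Pcna, and for Myl1 it fell from 4697 to 2684 CPM. How far the partner bears on these calls was not tested.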

How the data were processed

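The 8 unoperated samples were compared between strains, and the 8 operated samples gave the second measurement. Groups came from the characteristics and replicate numbers from the titles. Per the submitters' processing notes, FastQC, STAR, edgeR and the build mm10 were used, with versions, the counting program and the use of strand not given in the sources used here. That build is the genome of C57BL/6J, and the effect of aligning MRL reads to it was not tested. The table the authors deposited holds whole-number counts per gene for 11710 genes, not normalized, as its values show. A second deposited table gives, per the file headers, a log2 fold change per gene and comparison with its p-value and false discovery rate. From it only the calls of 23 genes were read.

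From the counts, R 4.3.3 with edgeR 4.0.16 was used: TMM scaling, filterByExpr (minimum count 10, which kept 11709 genes), and the quasi-likelihood test with 1 mean per group over all 16 samples. P-values were adjusted by Benjamini-Hochberg over all genes, and genes were called under 0.05. CPM uses TMM-scaled libraries, errors are SD over 4 samples or SE of a log2 fold change, and log2 CPM for principal components used a prior count of 2. The fit was tested on simulated data. Alternatives were DESeq2 1.42.0, limma 3.58.1 voom, other scalings, filters and sample sets, and leaving out each replicate. Total counts were 30309957 to 43552964 in the unoperated samples. No pair of replicates agreed within sampling noise, so each sample counted once.

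Gene names and coordinates are from GENCODE M21 (GRCm38), where 11708 IDs were found, 11690 with the same symbol. Shared 50-base stretches were counted between its transcripts. The samples and gene lists were chosen with earlier results of these data known. Named genes are the 12 largest rises and 12 largest falls among calls not set apart, with at least 5 CPM on average and no overlap between strains. To these come 4 and 4 of the set-apart genes, the called members of each list (the 3 largest at least), and the Y-linked genes. Copies, their parent genes, the genes that differed with surgery and those under Other observations were chosen after their values were seen. Some genes are not reported here.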

Additional observations from a re-analysis of the deposited data

Results flagged for a closer look

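The samples described here each lay far from the other 3 of their group by Dixon's criterion (the ratio of its gap to the group's range), which chance alone meets in about 1 in 20 groups. In MRL replicate 1, Aif1 measured 32.9 CPM against 0.409 to 0.806 CPM in the other MRL samples, Cd72 35.7 against 0.135 to 0.230 CPM, C1rb 15.6 against 1.20 to 1.79 CPM and Cd274 5.23 against 2.35 to 2.65 CPM. In the same library the matrix genes Col1a2, Sparc and Thbs4 measured 672, 802 and 110.1 CPM against 273 to 286, 385 to 448 and 37.0 to 43.2 CPM. All 7 were high in the library whose macrophage markers were highest. Among all 1216 called genes, this library was the high outlier of its group in 42 and the low outlier in 10.

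In MRL replicate 4, Nr4a3 was high (121 against 32.0 to 39.7 CPM), H2-Q7 was high (0.352 against 0.179 to 0.194 CPM) and Flt1, an endothelial receptor, was low (64.1 against 84.6 to 87.9 CPM). In MRL replicate 2, H2-Ea-ps was low (2.56 against 4.62 to 5.01 CPM). In MRL replicate 3, Cd59a was low (27.7 against 31.3 to 31.8 CPM). In BL6 replicate 1, mt-Nd6 (76.5 against 23.2 to 31.1 CPM), Pdk4 (1282 against 545 to 606 CPM) and Gapdh (35.8 against 16.1 to 18.2 CPM) were high. In the same sample Fgfbp1 (7.30 against 18.9 to 20.1 CPM), Gadd45a (13.3 against 20.3 to 21.5 CPM) and Shmt1 (8.08 against 12.3 to 12.97 CPM) were low. In BL6 replicate 2, Gsr was high (26.6 against 22.1 to 22.9 CPM). In BL6 replicate 3, Hba-a2 (166 against 37.8 to 52.4 CPM) and Fmod, a tendon proteoglycan (61.4 against 36.9 to 40.7 CPM), were high, and H2-Q2 measured 0.0264 CPM where the other BL6 samples had 0. In that sample Chrna1 (16.5 against 23.2 to 23.3 CPM) and Rgs5, a pericyte gene (317 against 361 to 367 CPM), were low. In BL6 replicate 4, Trim12a was high (5.49 against 4.78 to 4.84 CPM).

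The strain difference differed with surgery in 3 of the named genes, by the interaction test of edgeR. For Hspa8 the interaction was -1.17 on the log2 scale, from -3.27 in unoperated to -4.44 in operated muscle. For Fzd4 it was 1.11, from -0.96 to 0.15. For the Y-linked Ddx3y it was 1.21, from -0.07 to 1.14.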

How the results depend on the processing

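Of 102 called genes named by the rule, in the lists or after their values were seen, 72 kept the call in each of up to 17 alternatives and 30 lost it in at least 1. Genes called numbered 1666 with DESeq2 and 1211 with limma voom, but 2438 when only the 8 unoperated samples were fitted and 2315 when MRL replicate 1 was also left out, a setting chosen after seeing the data. Calls outside the set-apart genes were then 2119 and 2014. Leaving out each replicate gave 821 to 1102 genes called, 639 to 907 calls outside the set-apart genes, 492 to 577 calls repeated in operated muscle (606 with all samples), and 0 to 13 calls whose strain difference differed with surgery. The last count was 126 with DESeq2 and 10 under scaling by total counts. Removing the set-apart genes before the fit left 304 calls with a log2 fold change of at least 1, by construction. Samples left out leave 3 in a group, and causes of these changes were not tested.

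The replicate numbers of the titles do not pair the samples by any label. Same-numbered samples correlated from -0.110 to 0.360 in their deviations, and 4 of 8 samples correlated best with their own number. With the number as a block, 1146 genes were called and 1 call differed with surgery.

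Genes that changed sign were not called where this happened. With voom the log2 fold change was 0.023 for Cd74 and 0.045 for H2-Aa. Under scaling by total counts it was 0.052 for Cd74, 0.017 for H2-Aa, 0.012 for Atp5b, 0.028 for Atp5a1, 0.066 for Ddx3y and 0.017 for Kdm5d. With the replicate number as a block it was 0.081 for Alas2. Among the unoperated samples alone without MRL replicate 1 it was -0.52 for Cd72, -0.11 for Thbs4 and 0.071 for Ddx3y. Over the fits that left out each replicate, values ran from -0.27 to 0.28 for Cd74, -0.30 to 0.33 for H2-Aa, -0.52 to 5.41 for Cd72 and -0.11 to 0.58 for Thbs4. They ran from -0.83 to 0.45 for Alas2, -0.55 to 0.075 for Pdk4, -0.024 to 0.16 for Ccng1, -0.018 to 0.034 for Mdm2 and -0.15 to 0.071 for Ddx3y. At 0.0718 to 0.0968 CPM for 3 counts, depth limits folds of genes near 0 in a strain, such as Hal.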

Other observations

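Further genes differed that the text has not described, all chosen after their values were seen and all called by edgeR in unoperated muscle. They are single genes and stand for no group, and other immune genes were called higher, among them Cxcl11 (1.32) and Clec10a (1.73). Cxcl9, a chemokine for T cells, averaged 1.32 ± 0.423 CPM in BL6 and 0.104 ± 0.0608 CPM in MRL (SD, n = 4 each), a log2 fold change of -3.59. Fas, the death receptor, averaged 8.11 ± 1.29 against 2.64 ± 1.10 CPM (-1.62). Gbp5 had -1.52, Gbp4 -1.28, Lgals3bp -1.14, Cd274, the ligand PD-L1, -1.01, Irgm2 -0.96 and Apobec3 -0.89. Gbp4, Cd274 and Apobec3 lost their call in 3, 10 and 8 of 17 alternative fits. Ifi202b, a DNA sensor of the PYHIN family, had no count in BL6 and averaged 2.64 ± 0.585 CPM in MRL, at least 132-fold higher against a floor of 3 counts over the group. Trim12a went the other way, with 4.98 ± 0.346 CPM in BL6 and no count in MRL, at least 232-fold lower. H2-Q2, a class I chain, averaged 0.00661 against 4.32 CPM, and B4galnt2, a glycosyltransferase, 0.0210 against 3.95 CPM.

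Mthfd2, an enzyme of one-carbon metabolism, measured 8.74, 10.5, 5.55 and 6.63 CPM in BL6 and 27.1, 36.1, 22.8 and 26.8 CPM in MRL, a log2 fold change of 1.84. Asns, asparagine synthetase, had 1.71, Shmt1, a serine hydroxymethyltransferase, 1.11 and Psat1, of serine synthesis, 1.01, and Ddit3, the stress factor CHOP, had 0.84 and lost its call in 7 of 17 fits. Mthfd2 and Shmt1 were called in operated muscle too, and Asns (0.64), Psat1 (0.06) and Ddit3 (-0.02) were not. Alad, of haem synthesis, averaged 25.9 ± 3.32 against 78.5 ± 9.29 CPM (1.60), and Glo1, glyoxalase 1, 69.0 ± 5.68 against 147 ± 2.39 CPM (1.09), with a sequence-sharing copy that was called higher too. Ucp2 had 1.46 and was not called without MRL replicate 1 (edgeR adjusted p = 0.0513). Lower in MRL were Ezh1, a histone methyltransferase (50.8 ± 3.32 against 9.32 ± 0.675 CPM, -2.45), Igfals, a carrier of insulin-like growth factors (-2.27), Actc1, cardiac actin (-1.87), and Prkag3, the muscle gamma subunit of AMPK (-0.88).

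The share of genes called varied between windows along the chromosomes. Of 200 windows of 10 Mb with at least 20 tested genes, 16 held no call and 10 held calls in over 20% of their genes, with a median of 8.33%. The highest share was 36.4%, 8 of 22 genes, at chr8:30000001-40000000 (GRCm38). Whether this spread goes beyond chance was not tested.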
